A study of Homo sapiens with 2 samples.

Results

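The E2F transcription factors E2F1 to E2F8, the dimer partner TFDP1 and the MYB factor MYBL2 were followed in RNA sequencing data of U87MG, a long-established glioblastoma cell line of human origin. These 10 genes were taken by name from a table of 58735 genes, and all 10 passed the filter on low values. They were chosen by measured values of these same libraries as well as by their shared role, so their differences are given as a description without any test. The cells carried a lentiviral shRNA, either against TRIP13 (labelled shTRIP13) or a control in the pGIPZ vector (labelled shcon), and both lines went through puromycin selection for stable integration and a week of culture under stem cell conditions as glioma spheres. Whether a line came from 1 clone or from many was not given in the sources used here. There was 1 library for each, named shTRIP13 and shcon after its label, so there is no replicate error and no p-value, and each difference is between 2 libraries rather than 2 conditions.

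E2F proteins bind DNA at the promoters of genes needed for S phase. E2F1, E2F2 and E2F3 are the activators, held in check by the retinoblastoma protein RB1 until cyclin-dependent kinases phosphorylate it. E2F4 and E2F5 act mainly as repressors in resting cells together with the pocket proteins RBL1 and RBL2, and E2F6 represses through polycomb proteins without binding pocket proteins. The members named so far bind DNA as dimers with a DP protein, mostly TFDP1. E2F7 and E2F8, the atypical members, carry a pair of DNA-binding domains, need no DP partner and repress E2F target genes, E2F1 among them. MYBL2, also called B-MYB, is a well-known E2F target whose protein joins the MuvB complex to switch on genes of G2 and mitosis.

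The promoters of members are shown first because several of these genes are themselves known E2F targets. The letters are the 150 bases before the RefSeq transcription start (GRCh38.p14), read along the strand of the gene. Capitals mark E2F words and, in E2F3, also the CHR word TTTGAA, an element known from genes of G2 and mitosis. The strict E2F words were TTTCCCGC or TTTCGCGC or TTTGCCGC or TTTGGCGC. The wider words, chosen after the sequences were seen, were TTCCCGC or TTCCCGG or TTCGCGC or TTCGCGG or TTGCCGC or TTGCCGG or TTGGCGC or TTGGCGG, and every strict word contains a wider one. All were searched on both strands.
E2F1 (chr20:33686386-33686535, minus strand): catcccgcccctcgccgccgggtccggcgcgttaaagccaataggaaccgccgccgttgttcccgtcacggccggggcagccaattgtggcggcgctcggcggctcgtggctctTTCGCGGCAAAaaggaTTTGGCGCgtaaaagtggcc
E2F2 (chr1:23531234-23531383, minus strand): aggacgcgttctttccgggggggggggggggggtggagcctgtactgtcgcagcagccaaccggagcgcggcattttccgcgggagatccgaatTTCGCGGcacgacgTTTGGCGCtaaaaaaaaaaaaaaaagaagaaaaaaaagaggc
E2F3 (chr6:20401729-20401878, plus strand): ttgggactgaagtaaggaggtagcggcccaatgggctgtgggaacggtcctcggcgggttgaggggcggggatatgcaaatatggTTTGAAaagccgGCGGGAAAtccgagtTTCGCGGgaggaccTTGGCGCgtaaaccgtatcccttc
TFDP1 (chr13:113584603-113584752, plus strand): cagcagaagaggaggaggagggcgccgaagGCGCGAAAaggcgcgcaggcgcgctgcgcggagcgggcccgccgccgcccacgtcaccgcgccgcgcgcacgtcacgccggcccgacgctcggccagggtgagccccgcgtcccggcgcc
MYBL2 (chr20:43666964-43667113, plus strand): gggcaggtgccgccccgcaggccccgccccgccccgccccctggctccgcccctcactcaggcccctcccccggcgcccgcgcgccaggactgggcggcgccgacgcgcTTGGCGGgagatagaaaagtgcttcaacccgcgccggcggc
E2F7 (chr12:77065570-77065719, minus strand): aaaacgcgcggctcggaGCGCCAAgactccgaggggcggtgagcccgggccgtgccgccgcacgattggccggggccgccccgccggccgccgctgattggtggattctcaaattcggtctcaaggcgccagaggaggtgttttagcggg

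A strict E2F word was found in the promoters of E2F1, E2F2, E2F3 and TFDP1, which are 4 of the 8 members with a promoter in the RefSeq table. In E2F1, TTTGGCGC spans bases -20 to -13 before the start, and TTTGCCGC lies on the opposite strand from -33 to -26, overlapping the wider word TTCGCGG. E2F2 carries TTTGGCGC from -42 to -35, with TTCGCGG from -56 to -50. The first start of E2F3 has TTTCCCGC on the opposite strand from -53 to -46 and the CHR word from -65 to -60, while the promoter of its second start holds none of the words. TFDP1 has TTTCGCGC on the opposite strand from -120 to -113. MYBL2 holds a wider word alone, TTGGCGG from -41 to -35. E2F7 also has wider words alone, on the opposite strand, and the word shown runs from -133 to -127. E2F4 holds none of the E2F words within the 300 bases searched, and E2F6 has wider words alone. Over all 35116 promoters of this length, 3.31% hold a strict word, 23.7% a wider one and 15.2% the CHR word, so a wider word by itself is common. E2F5 and E2F8 were not in the promoter table. A word match describes these letters and is not a measured binding site.

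Expression was deposited as FPKM, the fragments of a gene scaled by its merged exon length and by sequencing depth, which allows levels to be set beside each other across genes. The values stepped in whole reads, which gave totals of 19903836 reads in shTRIP13 and 18871063 reads in shcon. Both libraries had been divided by 1 common total, so a ratio of FPKM carries the depth ratio of 1.05. TRIP13, the AAA+ ATPase that the shRNA targets, stood at 23.1 FPKM in the library labelled shTRIP13 and 11.9 FPKM in the shcon library, against the label, and directions below are between the libraries as labelled. Were the labels exchanged, every log2 ratio below would change its sign and every rank its end of the list, so that E2F7 would be 20.4-fold higher in the TRIP13 shRNA cells, and which case holds was not tested. The 7 glioma and neural stem markers summed to 542 FPKM in shTRIP13 and 566 FPKM in shcon, most of it VIM and CD44, which were close in both. Among the rest, OLIG2 had 22 reads in shTRIP13 against 177 reads in shcon and NES 238 reads in shTRIP13 against 563 reads in shcon, FUT4 went the other way with 145 reads in shTRIP13 against 112 reads in shcon, and SOX2 and PROM1 had 5 reads or fewer in each. The 5 astrocyte markers summed to 8.17 FPKM in shTRIP13 and 11.0 FPKM in shcon, nearly all SLC1A3, with AQP4 at 0 in both and GFAP at 28 reads in shTRIP13 against 92 reads in shcon. The 7 fibroblast and pericyte markers summed to 80.6 FPKM in shTRIP13 and 117 FPKM in shcon, with all 7 lower in shTRIP13. Collagens COL1A1 and COL1A2 made up most of that sum, while PDGFRB had 1.74 FPKM in shTRIP13 against 12.4 FPKM in shcon, LUM 2.08 FPKM in shTRIP13 against 7.55 FPKM in shcon and DCN 0.132 FPKM in shTRIP13 against 1.55 FPKM in shcon. The 6 microglia and macrophage markers summed to 3.61 FPKM in shTRIP13 and 4.23 FPKM in shcon, mostly CSF1R, with 3 of them at 0 reads in both. The 5 neuron markers summed to 9.30 FPKM in shTRIP13 and 10.7 FPKM in shcon, and the 4 endothelial markers to 0.0515 FPKM in shTRIP13 and 0.738 FPKM in shcon. These marker levels differed between the same libraries as the values below, and their part in those values was not tested.

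Of the 10 genes, 9 stood higher in the library labelled shTRIP13 and E2F7 stood far lower. The differences were compared as log2((FPKM + 1) / (FPKM + 1)), library labelled shTRIP13 over shcon library, called the log2 ratio. A fixed size rule marked values of 1 or more and of -1 or less as at least 2-fold. By it MYBL2, E2F2 and E2F8 were at least 2-fold higher, E2F7 was at least 2-fold lower, and 6 members lay between. The same rule marked 2.17% of the 10671 protein-coding genes that averaged 1 FPKM or more as higher, or 232 genes, and 4.19% as lower, or 447 genes. That split shifts to 139 higher and 568 lower with the median ratio set to 1. After rescaling to TPM it is 277 and 956, but over 12183 genes, since the filter and pseudocount then act on TPM. The median log2 ratio was 0.64 over the 10 genes and 0.12 over all genes tested, and 8 of the 10 lay above the latter. Setting the median ratio to 1 lowered the median of all genes by a log2 of 0.12 and turned the sign of E2F5 alone among the members. In bulk RNA, a larger share of cells in S phase or mitosis and more transcript per cell cannot be told apart.

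**Figure D1:**
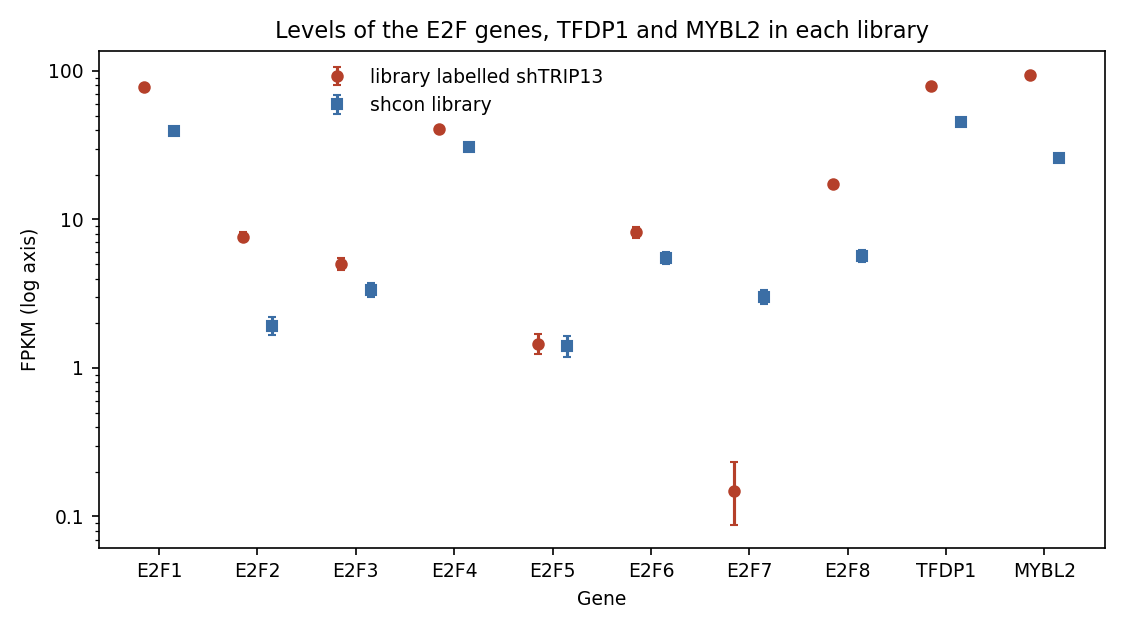
FPKM of each gene (log axis) in the library labelled shTRIP13 (circles) and the shcon library (squares), 1 library each, with bars for the 95% exact Poisson counting interval. E2F7 stands at 0.147 FPKM in shTRIP13 and 3.01 FPKM in shcon, while the intervals of E2F5 overlap.

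The activators were all higher in the library labelled shTRIP13, by unequal amounts. E2F1 (ENSG00000101412, hg38 chromosome 20, 33675683 to 33686404, minus strand) had 78.4 FPKM in the library labelled shTRIP13 and 39.2 FPKM in the shcon library, from 3802 and 1903 reads. Its FPKM ratio was 2.0, with a 95% exact (Clopper-Pearson) interval of 1.89 to 2.11 from the split of the reads. Such intervals cover counting error only, not the variation between cultures, and without molecular identifiers copies made in PCR count as separate reads. The log2 ratio of E2F1, 0.98, lay just under the size rule, so E2F1 was not counted as at least 2-fold higher. E2F2 (ENSG00000007968, chromosome 1, 23506430 to 23531220, minus strand) was the scarcest activator in the shcon library. It had 7.63 FPKM in the library labelled shTRIP13 against 1.93 FPKM in the shcon library, from 807 reads in shTRIP13 against 204 reads in shcon, a ratio of 3.96 (3.39 to 4.64) and a log2 ratio of 1.56. E2F3 (ENSG00000112242, chromosome 6, 20401906 to 20493715, plus strand) stood at 5.01 FPKM in shTRIP13 against 3.35 FPKM in shcon, a ratio of 1.5 (1.30 to 1.72). The gene gives rise to E2F3a and E2F3b from separate starts, and a gene-level value does not separate them.

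E2F4 and E2F5, the pocket protein partners of resting cells, differed least. E2F4 (ENSG00000205250, chromosome 16, 67192169 to 67198918, plus strand) had 40.5 FPKM in the library labelled shTRIP13 and 30.5 FPKM in the shcon library, from 2809 and 2117 reads, a ratio of 1.33 (1.25 to 1.40). E2F5 (ENSG00000133740) had 1.45 FPKM in shTRIP13 against 1.40 FPKM in shcon, from 167 and 161 reads. At this depth its ratio of 1.04 (0.830 to 1.30) could not be told from 1, and the log2 ratio, 0.03, became -0.05 once the median ratio was set to 1. Of the exon length of E2F5, 18.6% overlaps other annotated genes, chiefly C8orf59 on the other strand (9.44 FPKM in shTRIP13 against 10.1 FPKM in shcon), and with no strand setting given the reads there cannot be assigned. E2F6 (ENSG00000169016, chromosome 2, 11444375 to 11466177, minus strand), the polycomb-linked repressor, had 8.17 FPKM in shTRIP13 against 5.52 FPKM in shcon, a ratio of 1.48 (1.31 to 1.68).

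The atypical repressors went in opposite directions. E2F8 (ENSG00000129173, chromosome 11, 19224063 to 19241620, minus strand) had 17.3 FPKM in the library labelled shTRIP13 and 5.65 FPKM in the shcon library, from 1388 and 453 reads. This is a ratio of 3.06 (2.75 to 3.41) and a log2 ratio of 1.46. E2F7 (ENSG00000165891, chromosome 12, 77021247 to 77065580, minus strand) had 0.147 FPKM in shTRIP13 against 3.01 FPKM in shcon, from 18 reads in shTRIP13 against 368 reads in shcon. In shTRIP13 the FPKM of E2F7 was 20.4-fold lower, with an interval of 12.8 to 34.9, and its log2 ratio was -1.81. E2F7 passed the filter through its level in the shcon library, and so had to differ once it was near 0 in the other. E2F8 stood at 117 times the FPKM of E2F7 in the library labelled shTRIP13 and at 1.87 times in the shcon library. None of the exon length of E2F7 and 0.169% of that of E2F8 overlaps another annotated gene.

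TFDP1 and MYBL2 were among the most abundant of the 10 in both libraries. TFDP1 (ENSG00000198176, chromosome 13, 113584721 to 113641470, plus strand) had 79.2 FPKM in the library labelled shTRIP13 and 45.2 FPKM in the shcon library, a ratio of 1.75 (1.68 to 1.83) and a log2 ratio of 0.79. It stood at 0.561 of the summed FPKM of E2F1 to E2F6, which use a DP partner, in the library labelled shTRIP13 and at 0.552 in the shcon library. MYBL2 (ENSG00000101057, chromosome 20, 43667019 to 43716496, plus strand) had a ratio of 3.60 (3.40 to 3.83) and a log2 ratio of 1.81, from 5037 reads in shTRIP13 against 1398 reads in shcon. At 93.6 FPKM it was the most abundant of the 10 genes in the library labelled shTRIP13, and at 26.0 FPKM in shcon it came behind TFDP1, E2F1 and E2F4. In the library labelled shTRIP13 the levels of TFDP1 (Poisson interval 77.1 to 81.2 FPKM) and E2F1 (75.9 to 80.9 FPKM) overlapped within counting error, and so did those of E2F2 (7.11 to 8.18 FPKM) and E2F6 (7.55 to 8.83 FPKM). In the shcon library E2F8 and E2F6 overlapped, as did E2F3 (3.0 to 3.73 FPKM) and E2F7 (2.71 to 3.34 FPKM).

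**Figure D2:**
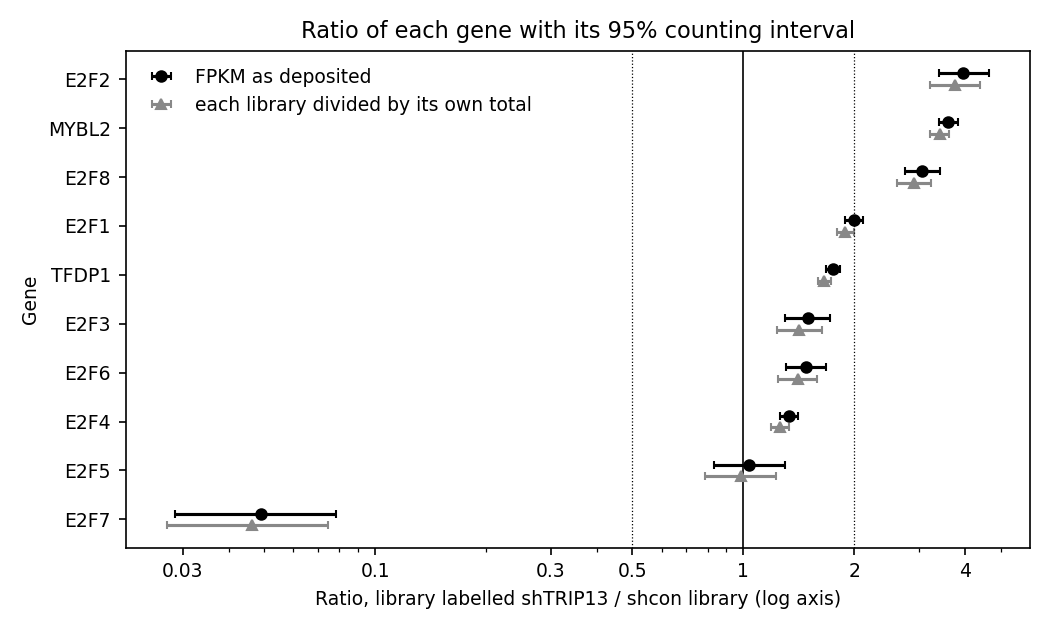
Ratio of each gene between the library labelled shTRIP13 and the shcon library (log axis), from FPKM as deposited (circles) and with each library divided by its own total (triangles), with 95% Clopper-Pearson counting intervals and dotted lines at 0.5 and 2. Only the intervals of E2F5 include 1, and E2F7 lies alone on the low side at 0.0489.

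Dividing each library by its own total of reads left 8 of the 10 counting intervals above 1 and that of E2F7 below 1, with E2F5 the exception. Of all genes tested, 43.2% had such an interval above 1 and 34% below 1. Within the summed E2F mRNA, E2F1 took a larger share and E2F4 a smaller one in shTRIP13. E2F1 gave 49.4% of the summed FPKM of E2F1 to E2F8 in the library labelled shTRIP13 and 43.3% in the shcon library. E2F4 gave 25.5% in the library labelled shTRIP13 and 33.7% in the shcon library. The activators together had 2.17 times the FPKM of E2F4 and E2F5 in the library labelled shTRIP13 and 1.40 times in the shcon library. The atypical pair kept a similar share, 11.0% in the library labelled shTRIP13 and 9.56% in the shcon library, although E2F7 supplied 0.0929% in the library labelled shTRIP13 and 3.33% in the shcon library.

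**Figure D3:**
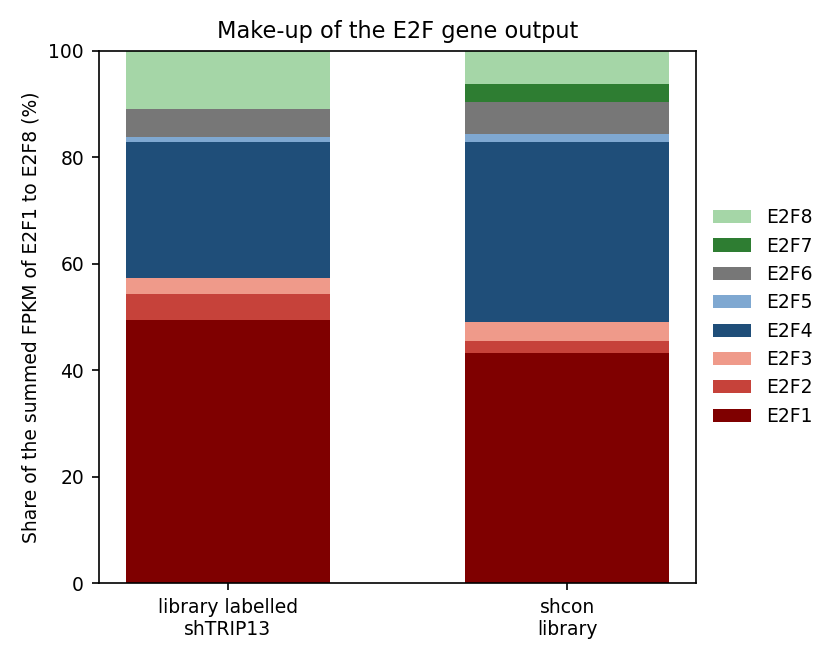
Share of the summed FPKM of E2F1 to E2F8 taken by each gene (percent, stacked) in the library labelled shTRIP13 and the shcon library. E2F8 takes 10.9% in the library labelled shTRIP13 and 6.23% in the shcon library, while the band of E2F7 is too thin to see in shTRIP13.

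Set beside other transcription factors, some members lay near the ends and others did not. Of 780 tested protein-coding genes with a transcription factor family in the deposited table, 2.44% passed the size rule upwards and 4.74% downwards. MYBL2 ranked 5 from the top among them, E2F2 9, E2F8 11 and E2F1 20, and E2F7 ranked 10 from the bottom. TFDP1 ranked 29 from the top, E2F6 76, E2F3 85, E2F4 111 and E2F5 333. Higher than MYBL2 stood ID3, ID1, ID2 and DLX2. Among all 10671 genes MYBL2 ranked 13 and E2F2 28 from the top, and E2F7 115 from the bottom. The members were chosen with these values known, so the ranks only describe them. E2F7 entered the ranking only through its level in the shcon library. The family called E2F in that table holds E2F1 to E2F8, TFDP1 and TFDP2 here. Its median log2 ratio was 0.48, the highest of 23 families with 5 or more tested genes, against -0.05 over all transcription factors. The next family, MH1, was close at 0.45 over 8 genes. All genes of the E2F family but TFDP2 are members chosen with these values known, so its place is description only.

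Genes near the members with the largest differences, E2F7, MYBL2, E2F8 and E2F2, had median log2 ratios far from the member's own. Within 1 Mb of the start of E2F7, 6 tested genes had log2 ratios from -0.12 to 0.20, with a median of -0.04, so none of them came near the -1.81 of E2F7. The 10 tested genes around MYBL2 had a median of -0.14 and a highest value of 0.72. Around E2F8 the median of 10 genes was 0.09, with SAA1 the lowest at -3.37. Around E2F2 the median of 19 genes was 0.33. The nearest of them, ID3, an inhibitor of basic helix-loop-helix factors whose start lies 28.6 kb from that of E2F2, had the highest log2 ratio among transcription factors, 3.96, while ASAP3 on the other side of E2F2 had -1.58. E2F1 had 18 tested neighbours with a median of 0.10, and TFDP1 17 with a median of 0.24. For E2F3, at 0.47, the single tested neighbour CDKAL1 stood at 0.40, from 1.95 FPKM in shTRIP13 against 1.23 FPKM in shcon. For E2F4, at 0.40, the 47 neighbours had a median of 0.16. The neighbour medians of all members lay between -0.14 and 0.40, beside 0.12 over all genes. How close a member lay to its neighbours therefore mostly followed from the size of its own ratio. Around E2F6 the median of 6 genes was 0.19, and around E2F5 that of 5 genes was -0.08.

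**Figure D4:**
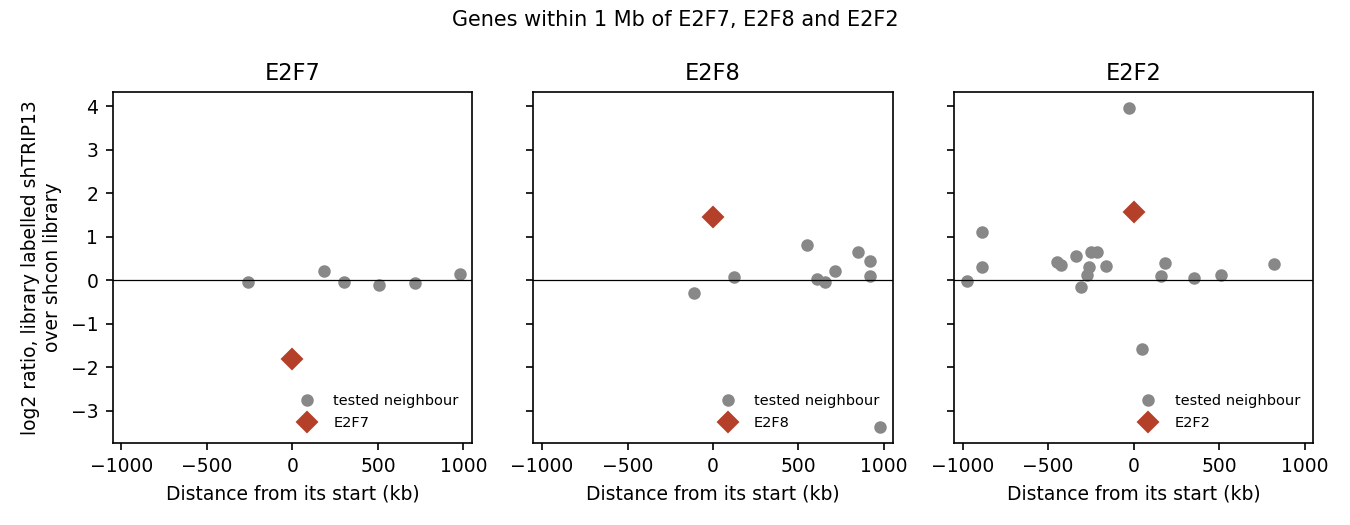
Log2 ratio (library labelled shTRIP13 over shcon) of tested genes within 1 Mb of E2F7, E2F8 and E2F2, by distance between starts in kb, with the member as a diamond. The neighbours of E2F7 lie between -0.12 and 0.20, and ID3 stands at 3.96 beside E2F2.

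Partners and regulators of the E2F proteins went in both directions. TFDP2, the other DP protein present, had 3.86 FPKM in the library labelled shTRIP13 and 4.93 FPKM in the shcon library, a ratio of 0.783 (0.716 to 0.855), opposite to TFDP1. TFDP3 had 0 reads in both. RBL1, or p107, a pocket protein that is itself a known E2F target, had 15.1 FPKM in shTRIP13 against 6.59 FPKM in shcon, a ratio of 2.29 (2.10 to 2.49) and a log2 ratio of 1.08. RBL2, or p130, the pocket protein of resting cells, had 11.9 FPKM in shTRIP13 against 17.3 FPKM in shcon, a ratio of 0.687 (0.645 to 0.731). RB1 had 6.45 FPKM in shTRIP13 against 4.37 FPKM in shcon, a ratio of 1.48 (1.32 to 1.65). So of 3 pocket proteins RBL1 alone was at least 2-fold higher, beside 2.17% of all genes, and with the median ratio set to 1 its log2 ratio was 0.96, under the rule.

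MuvB is the core that MYBL2 shares with the repressive DREAM complex of E2F4 and RBL2. Of its 5 subunits tested, LIN9 had 4.23 FPKM in shTRIP13 against 1.96 FPKM in shcon, a log2 ratio of 0.82, and LIN54 6.24 in shTRIP13 against 3.90 in shcon. LIN52 had 6.26 FPKM in shTRIP13 against 5.05 FPKM in shcon and RBBP4 20.4 in shTRIP13 against 17.2 in shcon. LIN37 lay below 0 at 0.988 FPKM in shTRIP13 against 1.35 FPKM in shcon, with an interval of its ratio of 0.504 to 1.05 that includes 1. FOXM1, the forkhead factor that follows MYBL2 on promoters of mitotic genes, had 32.6 FPKM in the library labelled shTRIP13 and 14.8 FPKM in the shcon library, a ratio of 2.20 (2.06 to 2.34). The log2 ratio of FOXM1, 1.085, became 0.95 with the median ratio set to 1, under the size rule. Of the other MYB genes, MYBL1 had 5.45 FPKM in shTRIP13 against 4.76 FPKM in shcon and MYB 13 reads in shTRIP13 against 5 reads in shcon.

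In a list of G1 cyclins, their kinases, cyclin A2 (CCNA2) and the phosphatase CDC25A, all 9 tested genes had log2 ratios above 0. Their median was 0.95, and all 9 lay above the all-gene median of 0.12. Of the 9, CDC25A, CCNE2, CCNE1 and CCNA2 passed the size rule, beside 2.17% of all genes. CDC25A, which activates cyclin-dependent kinases, had 12.7 FPKM in the library labelled shTRIP13 and 3.57 FPKM in the shcon library. The E cyclins CCNE2 and CCNE1, both known E2F targets, had log2 ratios of 1.53 and 1.49, at 5.83 FPKM in shTRIP13 against 1.37 FPKM in shcon for CCNE2. The kinases themselves were closer to the rest, with CDK4 at 68.8 FPKM in shTRIP13 against 52.1 FPKM in shcon, CDK6 at 6.27 in shTRIP13 against 4.06 in shcon and CDK2 at 18.5 in shTRIP13 against 12.2 in shcon. Of 7 CDK inhibitors 3 passed the filter. None passed the size rule, beside 2.17% of all genes higher and 4.19% lower, and none of 3 is near those shares. CDKN1A (p21) had 116 FPKM in shTRIP13 against 68.6 FPKM in shcon, CDKN1B (p27) 15.9 in shTRIP13 against 19.2 in shcon and CDKN2D 18.7 in shTRIP13 against 15 in shcon. CDKN2A had 1 read in shTRIP13 against 2 reads in shcon, and CDKN2B and CDKN2C had 0 in both libraries.

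Known target genes of E2F in DNA synthesis were higher together. Of 60 listed G1/S targets 59 passed the filter, all 59 had log2 ratios above 0, 25 of them were at least 2-fold higher and 0 were lower by that rule, against the 2.17% and 4.19% of all genes given above. That number fell to 16 with the median ratio set to 1 and to 9 with a pseudocount of 5. Their median log2 ratio was 0.94, and all 59 lay above the all-gene median of 0.12. All 59 counting intervals lay above 1 with each library divided by its own total, as did those of 43.2% of all genes. RRM2, a ribonucleotide reductase subunit, had 46.5 FPKM in the library labelled shTRIP13 and 13.3 FPKM in the shcon library. CLSPN, a replication checkpoint adaptor, stood at 15.3 FPKM in shTRIP13 against 4.10 FPKM in shcon and GINS2, a part of the replicative helicase, at 15.4 in shTRIP13 against 4.35 in shcon. The lowest were WEE1, a kinase that holds back mitosis (5.84 FPKM in shTRIP13 against 4.57 FPKM in shcon), DEK (30.1 in shTRIP13 against 24.0 in shcon) and DBF4 (10.8 in shTRIP13 against 8.35 in shcon). The E2F1 log2 ratio of 0.98 lay beside the median of this list, those of E2F2 and E2F8 in its upper range, which reached 1.73, and that of MYBL2 above it.

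Targets of MYBL2 and FOXM1 in G2 and mitosis mostly had log2 ratios above 0, and few of them passed the size rule. Of 37 listed, 36 passed the filter, 35 had log2 ratios above 0 and 34 lay above the median of all genes. Their median was 0.52. With each library divided by its own total, 33 of the 36 counting intervals lay above 1 and 1 below, beside 43.2% and 34% of all genes. By the size rule 2 were at least 2-fold higher, beside 2.17% of all genes. With the median ratio set to 1, 0 passed the size rule. These 2 were UBE2C, a ubiquitin-conjugating enzyme of mitotic exit (225 FPKM in the library labelled shTRIP13 and 102 FPKM in the shcon library), and KIF23, a kinesin of cell division (23.0 in shTRIP13 against 10.9 in shcon). KIF11, a spindle kinesin, lay just under the rule at 0.99. So did TPX2 and AURKB at 0.99, PLK1 at 0.98 and CDCA8 at 0.97, and each of these genes had an FPKM ratio above 2. PTTG1, or securin, had 51.2 FPKM in shTRIP13 against 53.5 FPKM in shcon, a ratio of 0.958 (0.900 to 1.02) that could not be told from 1 on FPKM as deposited, CKS2 had 250 in shTRIP13 against 240 in shcon and TTK 5.52 in shTRIP13 against 4.86 in shcon. CKS2 came to a log2 ratio of -0.08 when the median ratio was set to 1. Against the 3.60-fold ratio of MYBL2 itself, the highest FPKM ratio among the 36 tested genes of this list was 2.20, for UBE2C, and PRC1, which fell under the filter, had 83 reads in shTRIP13 against 32 reads in shcon, a ratio of 2.59 (1.71 to 4.03).

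**Figure D5:**
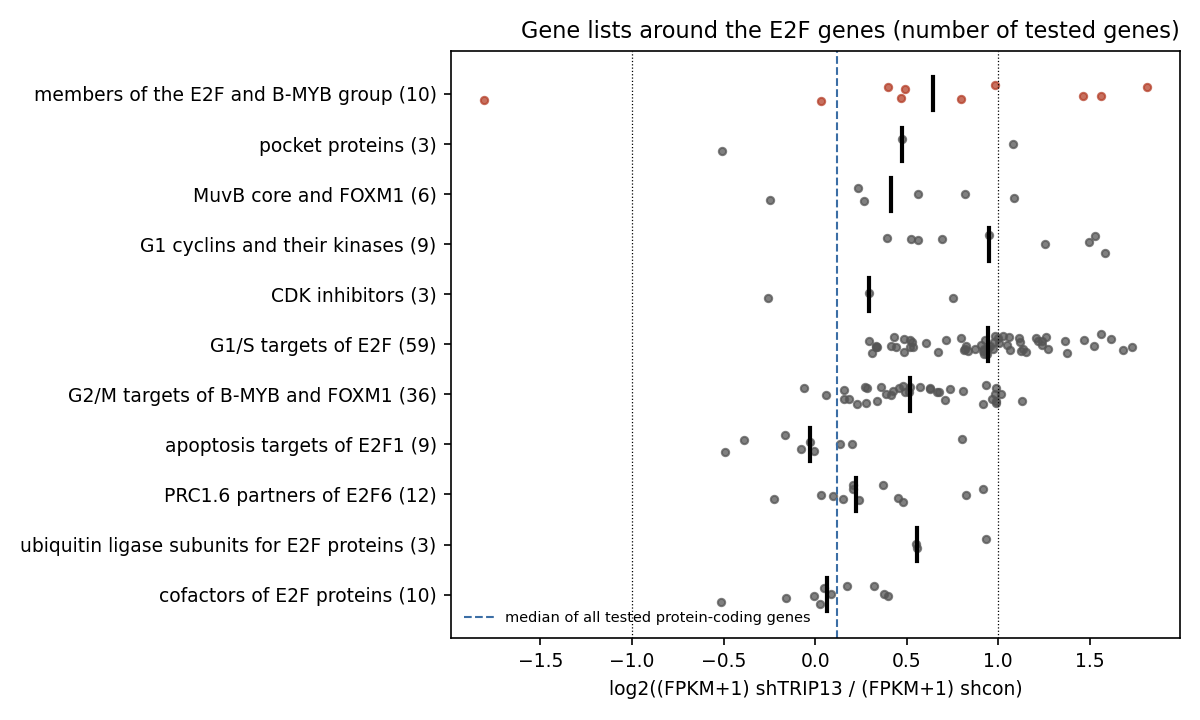
Log2 ratio of each tested gene (points) in the listed groups with the median of each list (bars), library labelled shTRIP13 over shcon, dotted lines at the size rule and a dashed line at 0.12, the median of all tested protein-coding genes. The G1/S targets centre on 0.94 and the G2/M targets on 0.52, while the apoptosis targets centre on -0.03.

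Apoptosis genes known as E2F1 targets were not higher as a group. Of 11 listed 9 passed the filter and 3 lay above 0, with a median log2 ratio of -0.03. By the size rule none was higher or lower, beside 2.17% and 4.19% of all genes, and none of 9 is near those shares. APAF1, the apoptosome scaffold, had 1.23 FPKM in the library labelled shTRIP13 and 1.92 FPKM in the shcon library, a ratio of 0.643 (0.533 to 0.774). BID had 8.37 FPKM in shTRIP13 against 12.2 FPKM in shcon, and SIVA1, the highest of the list, 22.3 in shTRIP13 against 12.4 in shcon. TP73, a p53 family gene, had 9 reads in each.

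For E2F6, 11 of 12 tested partners in its polycomb complex lay above 0, and 9 lay above the all-gene median of 0.12. Their median log2 ratio was 0.22. None passed the size rule, beside 2.17% of all genes higher and 4.19% lower, and none of 12 is near those shares. PCGF6, the polycomb ring finger protein of that complex, was the highest at 7.93 FPKM in shTRIP13 against 3.72 FPKM in shcon, then WDR5 at 27.7 in shTRIP13 against 15.2 in shcon, and RYBP the lowest at 5.48 in shTRIP13 against 6.57 in shcon. None of 10 germline genes known, mostly from mouse, as E2F6 targets passed the filter. Among them STAG3, a meiotic cohesin subunit, had 53 reads in shTRIP13 against 58 reads in shcon, and TUBA3C, which has near-identical tubulin copies and is therefore uncertain, 6 in shTRIP13 against 54 in shcon. Of the ubiquitin ligase subunits that mark E2F proteins for degradation, CCNF (cyclin F) had 6.26 FPKM in shTRIP13 against 2.81 FPKM in shcon, a log2 ratio of 0.93. FZR1 had 18.9 FPKM in shTRIP13 against 12.6 FPKM in shcon and SKP2 11.8 in shTRIP13 against 7.73 in shcon. Cofactors of E2F proteins had a median of 0.07 over 10 genes, near that of all genes, from 0.40 for HCFC1 (32 FPKM in shTRIP13 against 24.0 FPKM in shcon) to -0.51 for the acetyltransferase EP300 (6.53 in shTRIP13 against 9.74 in shcon). MIR17HG, the noncoding host gene of the miR-17-92 microRNAs, which E2F factors induce and which target E2F mRNAs, had 157 reads in shTRIP13 against 96 reads in shcon, a ratio of 1.64 (1.26 to 2.13).

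Strict E2F words were more frequent in the promoters of the G1/S targets than over all tested genes. A strict word was in 29 of 53 G1/S target genes with a promoter, 54.7%, against 6.91% of the 8569 tested genes with a promoter, and in 3 of 31 G2/M target genes, 9.68%. The CHR word was in 22 of 31 G2/M target genes, 71.0%, and in 8 of 53 G1/S target genes, 15.1%, against 13.7% of tested genes. Of 592 tested genes with a strict word in a promoter, 6.08% were higher and 1.86% lower by the size rule, and their median log2 ratio was 0.24. Of 7977 tested genes without a strict word, 1.80% were higher and 4.05% lower, with a median of 0.12. The 592 genes include members and G1/S targets already described, so this comparison partly repeats their values. Among members, E2F1, E2F2, E2F3 and TFDP1 hold a strict word and had FPKM ratios from 1.5 to 3.96. E2F4, E2F6, E2F7 and MYBL2 hold none and had ratios of 1.33, 1.48, 0.0489 and 3.60, so high and low ratios both occurred without one.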

How the data were processed

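FPKM values were deposited by the authors for 58735 genes in 2 libraries, 1 per group. The submitters' processing notes name edgeR, featureCounts 1.5.0-p3, HISAT2 2.0.5 and the build hg38 without roles or settings, and the strand setting is not given in the sources used here. Gene positions equalled GENCODE release 29 for 58735 genes, whose exons gave the overlaps. FPKM times gene length gave whole reads within 0.001 of a read for 100% of values in both libraries. Log2 ratios used a pseudocount of 1 and a mean FPKM of at least 1, and understate differences of weakly expressed genes. The members, the gene lists and the rules were chosen with earlier results of these data known. Named were every member, all genes of lists of up to 6, and the 3 highest and 3 lowest tested genes of longer lists. Some others were picked after their values were seen (CCNA2, PRC1, TPX2, AURKB, PLK1, CDCA8, STAG3, TUBA3C, TP73 and the untested CDK inhibitors, ID and DLX2 genes, and neighbours). Counting intervals are 95% exact. Promoters came from the RefSeq table for 8 of 10 members and 8569 tested genes. The calculations were tested on simulated data. The tools were scipy 1.17.1, pandas 2.3.3 and numpy 2.4.6 under Python 3.11.15, with figures from matplotlib 3.10.9. Alternatives were own library totals, a median ratio of 1, TPM, pseudocounts of 0.1 and 5, filters at 5 FPKM or none, reads with 5 added, and genes of every biotype.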

Additional observations from a re-analysis of the deposited data

How the results depend on the processing

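No paired analysis was possible because only 1 library stands for each group, and none could be left out. Over the 9 alternatives, 9 of 10 members kept their sign, and E2F5 turned in 4. A change of pseudocount, filter or biotype cannot turn a sign. Own library totals, a median ratio of 1, TPM and reads with 5 added could, and E2F5 turned in all 4 of these. MYBL2, E2F2 and E2F8 stayed the members at least 2-fold higher except where noted here. With a pseudocount of 5, E2F2 had a log2 ratio of 0.87 and E2F7 of -0.64, so 0 members were at least 2-fold lower. With a mean FPKM of 5 or more, 6 members were tested, E2F2 and E2F7 not among them, 0 were at least 2-fold lower and the members' median was 0.89. The log2 ratio of E2F7 reached -4.09 on reads with 5 added. The cause was not tested beyond the filter and pseudocount themselves.

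Genes at least 2-fold higher numbered 408 with a pseudocount of 0.1, 64 with a pseudocount of 5 and 139 with the median ratio set to 1. Genes at least 2-fold lower numbered 677 and 180 with pseudocounts of 0.1 and 5, and 773 on reads with 5 added. Over other sets of tested genes, they numbered 280 of 6992 with a mean FPKM of 5 or more, 956 of 12183 under TPM and 737 of 13128 with every biotype. G1/S targets at least 2-fold higher numbered 9 with a pseudocount of 5 and 16 with the median ratio set to 1. For G2/M targets the number was 6 with a pseudocount of 0.1, 1 with a pseudocount of 5, with own library totals and under TPM, and 0 with the median ratio set to 1. Of 95 alternative values of single genes, 73 were labelled the same as the main value and 22 as moved. These labels do not in every case match the intervals of FPKM ratios given above. Weakly expressed members such as E2F5 and, in shTRIP13, E2F7 with 18 reads are limited by depth.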
